A study of Homo sapiens with 16 samples.

Results

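The genes described here are 10 genes of the epithelial-mesenchymal transition (EMT): the zinc-finger repressors SNAI1, SNAI2 (SLUG), ZEB1 and ZEB2, the basic helix-loop-helix factors TWIST1, TWIST2 and TCF3 (E2A), and the genes of E-cadherin (CDH1), N-cadherin (CDH2) and vimentin (VIM). They were taken by name from the 20007 protein-coding genes of the GENCODE annotation, and every H3K4me3 or H3K27me3 region within 3 kb of any of their annotated start sites was counted. The chromatin came from the human line MCF-10A, breast epithelium that is not transformed. For 24 hours the cells received octanoic acid (OA, 5 mM), a fatty acid of medium chain length, or the vehicle PBS. All groups are the same line grown in complete MEBM medium and processed as whole cultures, so a smaller share of marked cells and less mark per cell cannot be told apart. The peak lists cover 3 vehicle and 3 OA libraries for each histone mark, 2 untreated H3K4me3 libraries (positive control) and 2 untreated IgG libraries (negative control). The labels describe the cultures as biological replicates.

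In EMT, epithelial cells lose cell-cell junctions and gain motility. SNAI, ZEB and E-protein factors bind the E-box sequence CANNTG, with CAGGTG as a preferred form, and repress CDH1, whose product holds epithelial cells together, while CDH2 and VIM are the usual marks of the mesenchymal state. H3K4me3 marks active or poised start sites and H3K27me3 is the Polycomb mark of repressed ones, so a gene that carries both is called bivalent. CUT&RUN cuts DNA beside an antibody-bound histone, and a called peak is a stretch where the cut fragments exceed the caller's local background.

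The sequences that bear on the peak positions are the E-box cores of the ZEB1 promoters and the bases upstream of the VIM, CDH2 and TCF3 start sites. They were read from RefSeq (GRCh38.p14), in which ZEB1, ZEB2, TWIST2, TCF3, CDH2 and VIM have promoter entries and SNAI1, SNAI2, TWIST1 and CDH1 were not matched. In the 7 RefSeq promoters of ZEB1 (250 bases before to 50 after each start, plus strand), 3 cores were searched on both strands: CAGGTG, its close variant CAGGTA and the palindromic core CAGCTG. They occur at 9 places. CAGGTG is the preferred form named above, and binding of a factor at any of the 9 places was not measured. The sites are shown because they lie inside and outside the H3K4me3 peaks of ZEB1. The core is in capitals, and the position of its first base is counted from the canonical start site.
ZEB1 at -856, chr10:31318348-31318377: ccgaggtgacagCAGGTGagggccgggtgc
ZEB1 at -242, chr10:31318966-31318991: ccccaccaCACCTGaggaaaactttt
ZEB1 at -85, chr10:31319119-31319148: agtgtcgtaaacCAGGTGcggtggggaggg
ZEB1 at 34, chr10:31319237-31319265: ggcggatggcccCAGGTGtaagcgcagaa
ZEB1 at 1325, chr10:31320528-31320557: ctacttgcaccgCAGCTGcagtgtttattg
The cores at -856, -242 and 1325 lay under an H3K4me3 peak in all 3 vehicle and all 3 OA libraries, as did those at -638 and 1194. The cores at -85 and 34, which flank the canonical start site, lay under no peak in any of the 6 libraries, and neither did those at 2446 and 2465. The shares of all 34943 RefSeq promoters with a core are 20.6% for CAGGTG, 9.85% for CAGGTA and 17.9% for CAGCTG, and 40.8% hold at least 1 of the 3. The promoters of ZEB2, TWIST2, TCF3, CDH2 and VIM hold none of these letters in their windows.

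The 250 bases before the start sites of VIM, CDH2 and TCF3 are shown because the same distance from a start site was bare of H3K4me3 at VIM, covered at CDH2 and variable at TCF3. CpG dinucleotides are in capitals.
VIM, chr10:17227991-17228240 (plus strand): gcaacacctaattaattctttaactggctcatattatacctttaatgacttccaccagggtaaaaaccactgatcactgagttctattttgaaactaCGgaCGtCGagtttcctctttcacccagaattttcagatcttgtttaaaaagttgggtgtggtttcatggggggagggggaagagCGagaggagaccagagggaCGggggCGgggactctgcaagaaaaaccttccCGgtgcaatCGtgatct
CDH2, chr18:28177131-28177380 (minus strand): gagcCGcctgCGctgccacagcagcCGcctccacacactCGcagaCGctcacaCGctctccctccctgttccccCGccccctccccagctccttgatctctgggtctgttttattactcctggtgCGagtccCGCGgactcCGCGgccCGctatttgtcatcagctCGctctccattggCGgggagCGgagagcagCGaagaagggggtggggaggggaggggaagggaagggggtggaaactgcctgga
TCF3, chr19:1652616-1652865 (minus strand): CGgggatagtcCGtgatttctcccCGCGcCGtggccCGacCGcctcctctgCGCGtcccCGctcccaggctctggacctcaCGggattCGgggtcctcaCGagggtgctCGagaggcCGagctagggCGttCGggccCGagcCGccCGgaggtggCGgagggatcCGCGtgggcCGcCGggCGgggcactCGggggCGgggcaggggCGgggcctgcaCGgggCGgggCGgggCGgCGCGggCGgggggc
The 300-base VIM promoter holds 10 CpG dinucleotides at a GC content of 48%, below the medians of 14 and 58.7% over all RefSeq promoters. The CDH2 promoter holds 23 at 67%, and TCF3 holds 43 at 78.3%, above 95% of promoters. H3K4me3 peaks covered 0 of the 300 VIM bases in 5 libraries and 15 in OA replicate 3. At CDH2 they covered 300 bases in every vehicle library and 107, 300 and 300 bases in the OA libraries. At TCF3 the covered bases were 300, 0 and 0 in vehicle and 123, 0 and 300 upon OA exposure. A peak touched 30.9% of all RefSeq promoters in all 6 libraries and 53.8% in none.

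Across the series, H3K4me3 lists held 16086 to 21033 peaks in the vehicle and OA libraries, 12924 and 11242 in the untreated ones and 1280 and 1131 for IgG, and H3K27me3 lists held 9091 to 47648. Read totals are unknown from peak lists. The number of reads stacked at a peak summit (pileup) was recovered from the deposited fold and p-value, and its median was 48, 78 and 22 in vehicle and 32, 63 and 60 upon OA exposure. Vehicle replicate 3 thus had the lowest median pileup of these 6 H3K4me3 libraries, and its peaks were the shortest (median 559 bp against 736 to 1028 bp). It is called shallow below in the sense of this median, since its read total is unknown. The untreated H3K4me3 libraries were lower still, with median pileups of 21 and 19 reads and median peaks of 555 and 517 bp. The part of this in their covered lengths below, alone or added to vehicle, was not tested. Among protein-coding genes, 868 (4.34%) had an H3K4me3 peak in every library but vehicle replicate 3, and 461 (2.3%) had one in OA replicate 3 alone. Mammary epithelial markers were marked to differing extents: 4 of 8 had an H3K4me3 peak in all 6 libraries, KRT5, KRT17, ITGA6 and EGFR, and each of the 8 had one in at least 1 library. Of protein-coding genes, 56.4% had such a peak in all 6 libraries and 29.3% in none. LAMB3 and EPCAM had one in 5 libraries and TP63 in 4. KRT14 had one in 2, with 1121, 747 and 0 bp in vehicle and 0 bp in each OA library. Of 3 endothelial markers, all lacked H3K4me3 in every library, and of 5 fibroblast markers none had it in all 6, with 0 to 2 marked per library. The fibroblast marker COL1A1 had it in 5 libraries, with 302, 454 and 0 bp in vehicle and 437, 985 and 1336 bp in OA. PDGFRB had it in 2 and the other 3 in none. Of 4 lymphoid and myeloid markers CD14 was marked in all 6 (311 to 1044 bp), PTPRC in 1 and the others in none. CDKN2A and MTAP of the 9p21 locus, which MCF-10A is known to have lost, had no peak of either mark.

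H3K4me3 was present at nearly all of the 10 genes irrespective of exposure. A peak lay within 3 kb of 9, 9 and 8 of them in vehicle, 9, 9 and 10 in OA and 9 and 8 in the untreated libraries, and of none in IgG. Of the 20007 protein-coding genes, 64.4%, 62.2% and 57.6% were marked in the vehicle, 64.3%, 65.7% and 69.2% in the OA, 53.2% and 48.9% in the untreated and 1.11% and 0.12% in the IgG libraries. In all 6 vehicle and OA libraries 8 of the 10 genes were marked, against 56.4% of protein-coding genes, and each of the 10 was marked in at least 1, while 29.3% of protein-coding genes were marked in none. The exceptions were SNAI1 and CDH1. After merging peaks across the 6 libraries and keeping regions found in at least 2, the 10 genes had 10 H3K4me3 regions, 9 of them called in all 6 libraries, against 59.1% of 18734 merged regions. None of the 10 regions was OA-only (called in each of the 3 OA libraries and in none of vehicle), a pattern of 1.84% of the merged regions, and none was vehicle-only, the pattern of 0.0801%.

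**Figure D1:**
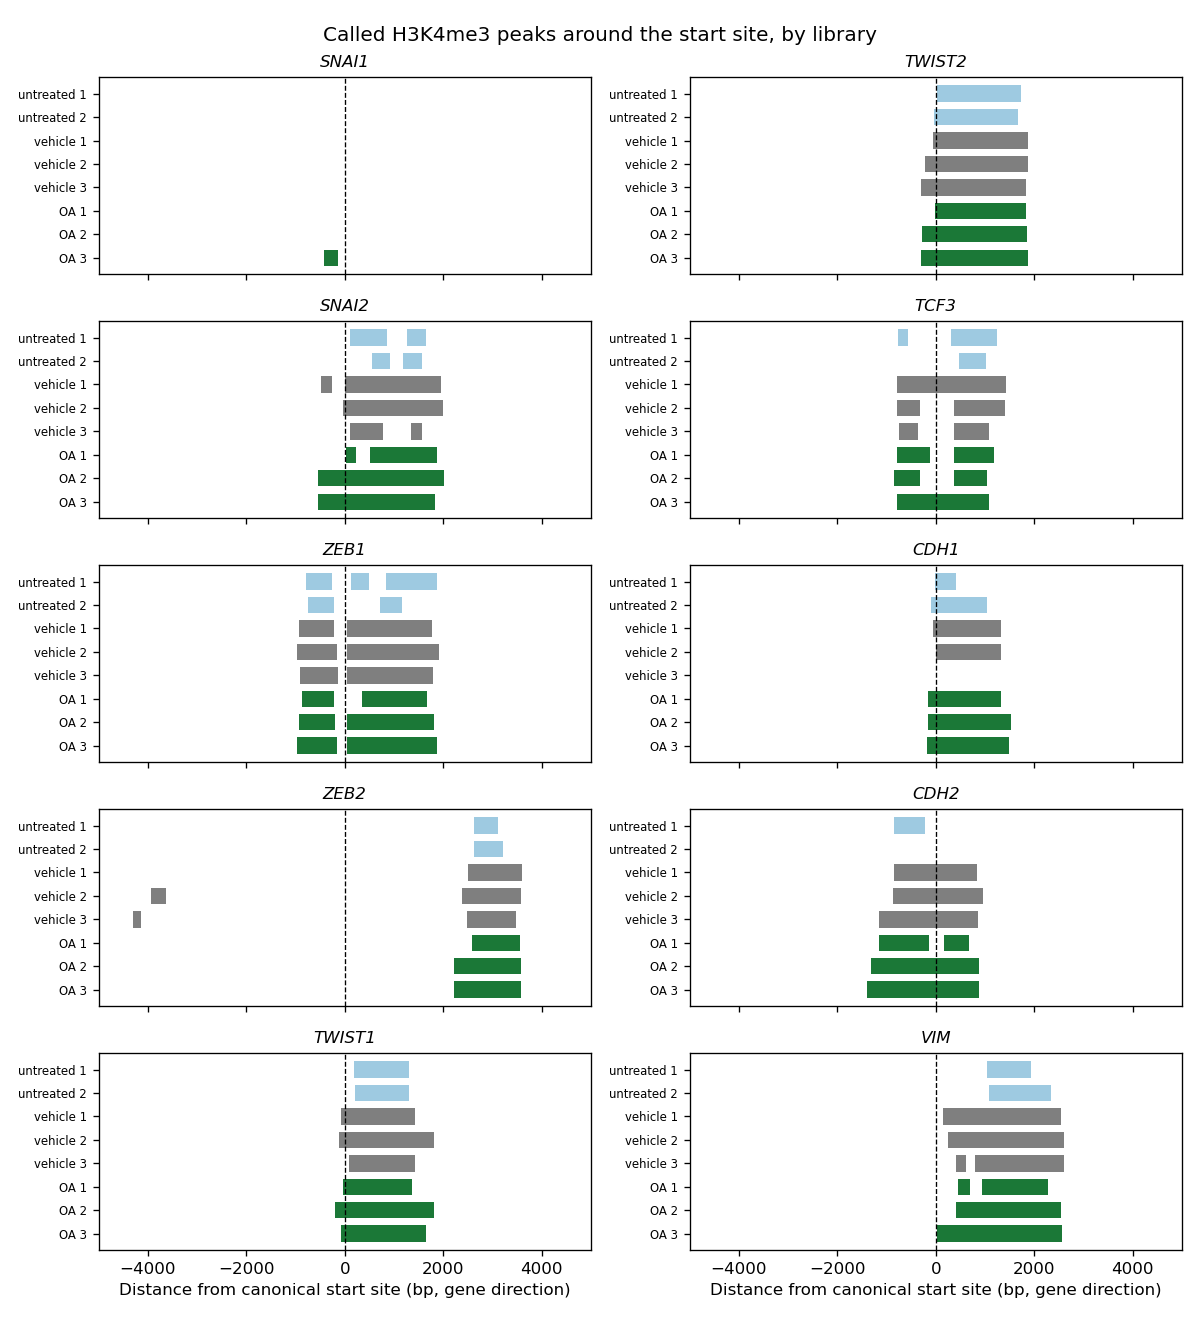
Each bar is a called H3K4me3 peak, placed by its distance in bp from the gene's canonical start site (dashed line) in the direction of the gene, with untreated libraries in blue, vehicle in grey and OA in green. The start site of ZEB1 lies between a pair of peaks in all vehicle and OA libraries, and SNAI1 has a peak in OA replicate 3 alone. At ZEB2 every library has a peak at least 2210 bp downstream of the canonical start. Vehicle replicates 2 and 3 each have a further ZEB2 peak upstream, at -3941 to -3626 bp and -4301 to -4129 bp.

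SNAI1, which encodes the founding EMT repressor Snail, had almost no H3K4me3. Its covered length was 0 bp in the 3 vehicle, the first 2 OA and both untreated libraries and 294 bp in OA replicate 3. That single peak (hg38 chr20:49982556-49982849) lay at -424 to -131 bp from the canonical start site, with a summit pileup of 19 reads over a background of 0.795, an 11.1-fold enrichment. Its p-value ranked above 35.4% of the peaks of that library. OA replicate 3 is the library with the most H3K4me3 peaks and the most genes marked in it alone, and the part of that in the SNAI1 call was not tested.

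SNAI2, the paralog that encodes Slug, carried H3K4me3 within 3 kb of its start in every library. A peak crossed the canonical start only in vehicle replicate 2 and OA replicates 2 and 3, and lay mostly downstream of it in the others. Covered lengths were 2170, 2028 and 904 bp in vehicle, 1555, 2549 and 2369 bp in OA and 1151 and 750 bp in untreated cells. The groups overlapped, with the shortest domain in the shallow vehicle replicate 3, and means were 1701 ± 694 and 2158 ± 530 bp (SD, n = 3 each, p = 0.5, two-sided exact permutation test). The merged region spans -545 to 2011 bp and holds 3 SNAI2 start sites and that of a long noncoding RNA gene (ENSG00000288761), whose signals cannot be told apart. All 6 libraries shared 621 of its 2557 bp.

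ZEB1 had the longest H3K4me3 domain of the 10 genes. Its covered length was 2433, 2681 and 2519 bp in vehicle, 1974, 2502 and 2622 bp in OA, and 1927 and 988 bp in untreated cells. Values overlapped between vehicle (2544 ± 126 bp) and OA (2366 ± 345 bp), with the lowest in OA replicate 1 (SD, n = 3 each, p = 0.6, exact permutation test). The domain is made of 2 regions, chr10:31318240-31319072 at -976 to -144 bp and chr10:31319257-31321125 at 41 to 1909 bp, with the canonical start site in the gap between them. No vehicle or OA library bridged the gap. All 6 libraries shared 655 of the 833 bp upstream and 1319 of the 1869 bp downstream. Each region holds 4 ZEB1 start sites, and ZEB1-AS1, the antisense gene, starts within both, so the mark cannot be given to one strand.
At the upstream region the summit pileup was 111, 237 and 109 reads in vehicle and 58, 206 and 131 reads upon OA exposure. At the downstream region it was 116, 232 and 94 reads in vehicle and 61, 144 and 124 upon OA exposure. Both sets of groups overlapped, and both regions kept a pileup above the median peak of the same library in all 6. Vehicle replicate 3, the shallowest of these 6 libraries, had 109 and 94 reads here against its median of 22.

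ZEB2, the paralog of ZEB1, was marked away from its canonical start. Covered lengths were 1088, 1495 and 987 bp in vehicle, 984, 1364 and 1352 bp in OA, and 487 and 585 bp in untreated cells, overlapping between groups (1190 ± 269 and 1233 ± 216 bp, SD, n = 3 each, p = 1, exact permutation test). The region called in all 6 libraries (chr2:144516522-144517909) begins 2210 bp downstream of the canonical start and holds 11 annotated ZEB2 start sites. None of the 300 bases of the RefSeq promoter at the canonical start lay under a peak in any vehicle, OA or untreated library. A further 316 bp peak at -3941 to -3626 bp, which is in part counted in the 1495 bp, was called in vehicle replicate 2 alone with a pileup of 6 reads. It holds the start of the noncoding gene LINC01412.

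TWIST1 and TWIST2, paralogous factors of mesoderm and of EMT, both carried H3K4me3 at or just downstream of their starts in every library. At TWIST1 the covered length was 1507, 1930 and 1345 bp in vehicle, 1389, 2016 and 1718 bp in OA, and 1114 and 1079 bp in untreated cells. At TWIST2 it was 1923, 2081 and 2115 bp in vehicle, 1847, 2132 and 2162 bp in OA, and 1691 and 1721 bp in untreated cells. The groups overlapped at both genes, with means of 1594 ± 302 and 1708 ± 314 bp for TWIST1 (p = 0.7) and 2040 ± 102 and 2047 ± 174 bp for TWIST2 (p = 0.9, SD, n = 3 each, exact permutation tests). TWIST2 had the steadiest domain, with 1847 of its 2165 bp under a peak in all 6 libraries. A second region inside the TWIST2 gene, 16032 bp from its start, was called in vehicle replicate 2 (324 bp) and OA replicate 2 (194 bp).
TCF3 encodes the E proteins E12 and E47, partners of the TWIST factors. Its covered length was 2196, 1520 and 1097 bp in vehicle, 1468, 1214 and 1857 bp in OA, and 1412 and 540 bp in untreated cells. These values overlapped (1604 ± 554 and 1513 ± 324 bp, SD, n = 3 each, p = 0.9, exact permutation test). Vehicle replicate 1 and OA replicate 3 had a single peak across the start, and the other 4 libraries had 2 peaks with the start between them, so the libraries differed at TCF3 in whether a peak bridged the start.

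CDH1, the gene that the SNAI and ZEB factors repress, was the only one of the 10 whose covered lengths did not overlap between vehicle and OA. It had 1379, 1333 and 0 bp in vehicle, 1480, 1683 and 1676 bp in OA, and 446 and 1134 bp in untreated cells. Every OA library was above every vehicle library, with means of 904 ± 783 and 1613 ± 115 bp, a difference of 709 bp (SD, n = 3 each, p = 0.1, two-sided exact permutation test, the smallest value that 3 libraries against 3 can give). Of the 14138 protein-coding genes with an H3K4me3 peak in any of the 6 libraries, 8.78% likewise did not overlap with OA higher, and 0.29% with OA lower, so 1 gene of 10 is near the background. Without vehicle replicate 3, in which CDH1 had no peak, the groups still did not overlap but the difference fell to 257 bp.
The region, chr16:68737109-68738821, spans -183 to 1529 bp and holds 3 CDH1 start sites. Summit pileups were 48 and 36 reads in the 2 vehicle libraries with a peak and 24, 71 and 81 reads upon OA exposure. These pileups overlapped, since OA replicate 1 was the lowest. Within each library the p-value of the CDH1 peak ranked above 53.6% and 35.3% of peaks in vehicle and 36.2%, 52.9% and 65.3% in OA. A region 18879 bp inside the gene was called in vehicle replicate 2 (431 bp) and OA replicate 3 (254 bp). The lack of a peak in vehicle replicate 3 is shared by the 868 genes given above, and the part of library depth in the CDH1 difference was not tested.

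CDH2, the mesenchymal cadherin, was marked in all 6 vehicle and OA libraries of this epithelial line. Its covered length was 1687, 1833 and 2012 bp in vehicle and 1526, 2203 and 2261 bp in OA, and 638 and 0 bp in untreated cells. The vehicle values lay within the range of the OA values (1844 ± 163 and 1997 ± 409 bp, SD, n = 3 each, p = 0.6, exact permutation test). The region, chr18:28176162-28178520, spans -1390 to 968 bp and its summit lay upstream of the start in all 6 libraries, at -681 to -279 bp. Of the other constant regions only the upstream ZEB1 region had every summit on that side.

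VIM encodes the intermediate filament of mesenchymal cells, which cultured mammary epithelial cells also make. Its covered length was 2406, 2361 and 1987 bp in vehicle, 1577, 2126 and 2523 bp in OA, and 891 and 1259 bp in untreated cells. Vehicle (2251 ± 230 bp) and OA (2075 ± 475 bp) overlapped, with both the lowest and the highest value in OA libraries (SD, n = 3 each, p = 0.7, exact permutation test). The region, chr10:17228276-17230854, begins 35 bp after the canonical start, holds 7 VIM start sites and the start of VIM-AS1, and reached upstream of the start in none of the 6 libraries.

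**Figure D2:**
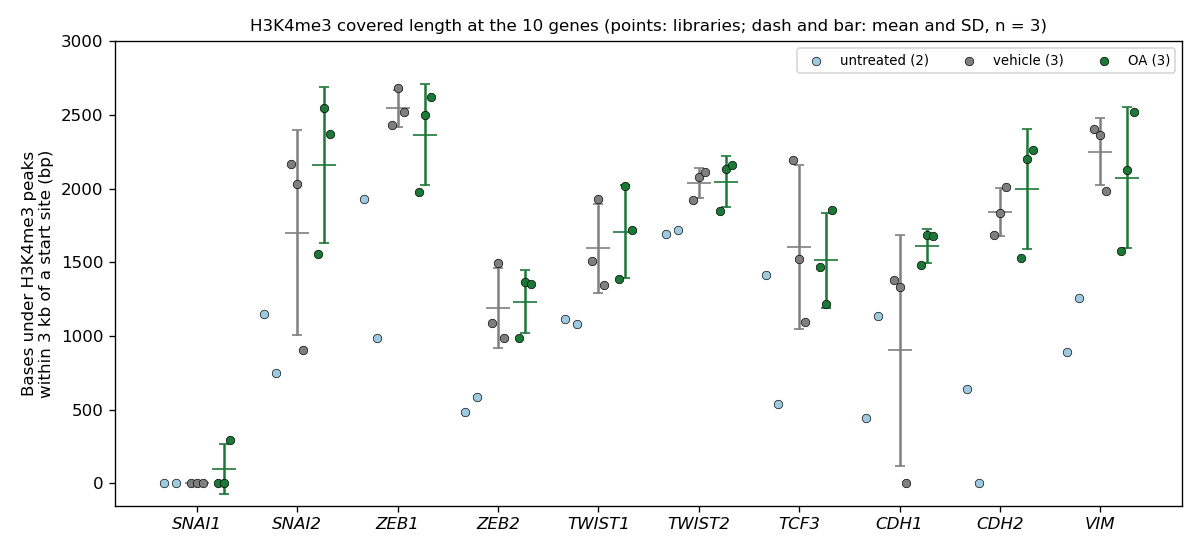
Each point is a library, its height the number of bases (bp) under H3K4me3 peaks within 3 kb of a start site of the gene, with dashes and bars for the mean and SD of vehicle and OA (n = 3 each). The vehicle and OA points overlap at every gene except CDH1, where the lowest vehicle point, at 0 bp, is replicate 3.

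Set in order of mean covered length over the 6 libraries, the genes were ZEB1 (2455 ± 252 bp), VIM (2163 ± 347 bp), TWIST2 (2043 ± 128 bp), SNAI2 (1929 ± 606 bp), CDH2 (1920 ± 290 bp), TWIST1 (1651 ± 282 bp), TCF3 (1559 ± 409 bp), CDH1 (1259 ± 634 bp), ZEB2 (1212 ± 219 bp) and SNAI1 (49 ± 120 bp, SD, n = 6). Only 2 neighbouring pairs kept this order in all 6 libraries, ZEB1 above VIM and ZEB2 above SNAI1, and the other pairs kept it in 3 to 5. Among the 11283 protein-coding genes marked in all 6 libraries, whose median was 1368 bp, ZEB1 was longer than 95.1%, VIM than 90.7% and TWIST2 than 87.6%. SNAI2, CDH2, TWIST1 and TCF3 were longer than 83.9%, 83.6%, 70.2% and 64.2%. CDH1 and ZEB2 were below the median of these genes, at 40.8% and 36.7%. CDH1 is not itself one of these genes, and its mean includes the 0 bp of vehicle replicate 3. In the libraries with a peak it had 1333 to 1683 bp, on both sides of the median of 1368 bp. A large number of start sites per gene widens the window that is counted.

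The size of the vehicle to OA difference was then estimated at the 9 regions called in all 6 libraries, of SNAI2, ZEB1 (2), ZEB2, TWIST1, TWIST2, TCF3, CDH2 and VIM, with limma across all 11071 such regions. None of the 9 passed (adjusted p below 0.05) in covered length, summit pileup or rank of the p-value within its library. Adjusted p ranged from 0.653 to 0.982 for covered length, 0.368 to 0.941 for pileup and 0.681 to 0.989 for rank. Over all regions, 0 (0%) passed in covered length, 13 (0.117%) in pileup and 4 (0.0361%) in rank, all higher in OA. At an unadjusted p below 0.05, 0 of the 9 passed in any measure, against 8.16%, 18.8% and 11.3% of all regions.
Differences are given as OA minus vehicle on the log2 scale, each library centred on its median region. In covered length they ranged from -0.30 to 0.25 with a median of -0.16, beside -0.03 for all regions. The downstream ZEB1 region was at -0.30 ± 0.18 (SE, 95% interval -0.71 to 0.11), VIM at -0.30 ± 0.15 (-0.65 to 0.05) and SNAI2 at 0.25 ± 0.19 (-0.19 to 0.70). Each of these intervals holds 0. In pileup the same ZEB1 region had the largest difference, -0.47 ± 0.28 (-1.08 to 0.15), while TWIST1 had 0.21 ± 0.21 (-0.27 to 0.68), and the median over the 9 was 0.06 beside -0.02 for all regions. CDH2, with 0.13 ± 0.33 in pileup (-0.59 to 0.86), and ZEB2, with 0.04 ± 0.25 (-0.52 to 0.60), had wide intervals around 0.
CDH1, with a peak in 5 libraries, was not among the 9 and was estimated under 2 alternatives. Without vehicle replicate 3 its difference was 0.29 ± 0.11 in covered length (95% interval 0.04 to 0.54, unadjusted p = 0.0308, adjusted p = 0.411 by limma). In pileup it was 0.74 ± 0.32 (0.04 to 1.44, adjusted p = 0.227), and in rank 0.18 ± 0.29 (-0.43 to 0.79, adjusted p = 0.924). With regions called in at least 4 libraries, a missing peak being set to the lowest value of its library, it was 1.16 ± 0.64 in covered length (-0.33 to 2.66, adjusted p = 0.581), 1.27 ± 0.48 in pileup (0.18 to 2.36, adjusted p = 0.205) and 1.26 ± 0.80 in rank (-0.55 to 3.06, adjusted p = 0.594). None of these passed after adjustment.

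**Figure D3:**
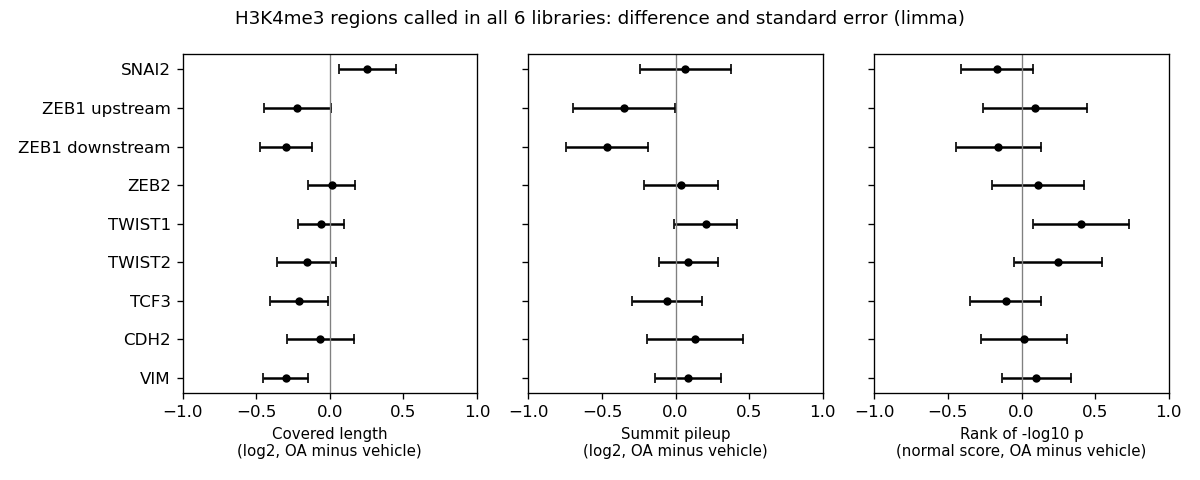
For each H3K4me3 region called in all 6 libraries, the point is the limma difference, OA minus vehicle, and the bar its standard error, for covered length (log2), summit pileup (log2) and rank of -log10 p (normal score). Points lie between -0.47 and 0.40 on both sides of 0, and none passed the adjusted threshold.

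H3K27me3 was nearly absent from the 10 genes, as it was from most protein-coding genes. No H3K27me3 region within 3 kb of their start sites was called in 2 or more libraries, against 16.2% of protein-coding genes with a call in at least 2, and 74.7% with none. With no region kept, the patterns called in all 6 libraries (4.06% of 32643 merged regions), OA-only (0.245%) and vehicle-only (2.55%) could not be counted for them. The Polycomb mark appeared as 2 isolated peaks. Of the 10 genes, 1, 0 and 0 had a call in vehicle and 1, 0 and 0 in OA. Of protein-coding genes, 10.5%, 15.2% and 11.9% had a call in vehicle and 15.7%, 10.9% and 4.64% in OA, and 2.11% in all 6. Counts of 0 or 1 among 10 genes are near these shares. No covered length of H3K27me3 separated the groups at any of the 10, a pattern of 0.415% of genes with OA higher and 5.99% with OA lower. At SNAI1, 190 bp at -1255 to -1066 bp were called in vehicle replicate 1 with a 3.34-fold enrichment, which ranked above 5.27% of peaks in that list. At CDH2, 167 bp at 2683 to 2849 bp were called in OA replicate 1 with a 4.01-fold enrichment, above 80.3% of its list. SNAI1 thus lacked H3K4me3 in 5 of 6 libraries and H3K27me3 in 5 of 6. With no H3K27me3 region in 2 or more libraries, none of the 10 genes could carry both marks in a repeatable way. The share of all genes with both marks was not counted.

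The nearest H3K27me3 region kept in at least 2 libraries lay 14055 bp from SNAI2 (3 vehicle and 1 OA library), 14673 bp from TWIST2 (2 and 2) and 15416 bp from TCF3 (3 and 3). For the other 7 genes it was 61447 bp (ZEB1) to 1263915 bp (ZEB2) away. CDH1 was 228369 bp from such a region and CDH2 540072 bp. H3K27me3 lists varied more than H3K4me3 lists, from 9091 peaks in OA replicate 3 to 47648 in vehicle replicate 2, so a weak domain could be missed in the smaller lists.

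Related genes were counted in the same way. Of all protein-coding genes, 56.4% had H3K4me3 in all 6 libraries, 29.3% had it in none, and 16.2% had H3K27me3 in at least 2. All 7 partners of the repressors (among them the corepressors CTBP1 and CTBP2, SIN3A and AJUBA) had H3K4me3 in all 6 libraries and 0 had H3K27me3 in 2 or more. Of 9 genes of the TGF-beta pathway, which induces EMT, 8 had H3K4me3 in all 6, including TGFB1, SMAD2, SMAD3 and SMAD7. TGFB2, named after its values were seen, lacked it in vehicle replicate 3 alone, with 890, 1649 and 0 bp in vehicle and 1593, 2525 and 2630 bp in OA, and no gene of this list had H3K27me3. Of 11 other EMT factors, 6 were marked in all 6 libraries, among them FOXC2, HMGA2, TCF12 and TCF4, and 4 had H3K27me3 in at least 2. TBXT (brachyury), named after its values were seen, had it in all 6 with no H3K4me3 in any.

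Of 21 epithelial junction and identity genes, 9 (42.9%) had H3K4me3 in all 6 libraries, below the 56.4% of protein-coding genes. The 9 include the zonula occludens gene TJP1, desmoplakin (DSP) and the splicing regulator ESRP2. CLDN3, a claudin of tight junctions, was the only gene of any list with an OA-only call. It had 0 bp in each vehicle library and 220, 297 and 417 bp in OA. Of merged regions 1.84% had that pattern, and its share over genes was not counted. Another 5 of the 21 (EPCAM, CLDN7, CGN, CRB3 and OVOL2) were marked in every library but vehicle replicate 3, the same pattern as CDH1, which 4.34% of all genes showed. These 5 were named after their values were seen. EPCAM had 866, 915 and 0 bp in vehicle and 1044, 906 and 1170 bp in OA. OVOL2, a repressor of ZEB1, had 977, 858 and 0 bp in vehicle and 1378, 1335 and 1567 bp in OA. GRHL2 and CLDN4, likewise named after their values were seen, had no H3K4me3 peak in any of the 6 libraries.
Of 25 mesenchymal genes, 9 (36%) had H3K4me3 in all 6 libraries, below the 56.4% of protein-coding genes, and 8 had none. Among the 9 were the actin gene ACTA2, the protease gene MMP14 and the integrin gene ITGA5. THY1 was the only vehicle-only H3K27me3 call among the lists, with 199, 534 and 472 bp in vehicle, 0 bp in each OA library and no H3K4me3. The vehicle-only pattern was that of 2.55% of merged H3K27me3 regions, and its share over genes was not counted. LEF1, a WNT effector, carried both marks in all 6 libraries, with 703 to 1592 bp of H3K4me3 and 519 to 2048 bp of H3K27me3. H3K27me3 in all 6 libraries was found at 2.11% of protein-coding genes, and the share with both marks was not counted. Of 9 other cadherins and catenins, 6 had H3K4me3 in all 6, including CTNNB1, CTNNA1, CTNND1 and CDH4. CDH11, the mesenchymal osteoblast cadherin and the only gene of that list with H3K27me3 in 2 or more libraries, had 1360, 1238 and 795 bp of H3K27me3 in vehicle and 1198, 0 and 0 bp in OA. Its H3K4me3 was 0, 377 and 0 bp in vehicle and 0, 1743 and 2204 bp in OA. The marks were read in separate libraries. OA replicate 3 had the fewest H3K27me3 peaks (9091) and the most H3K4me3 peaks (21033), and the part of list size in these values was not tested. The share of all genes with such values in both marks was not counted. OA replicates 2 and 3 of one mark and of the other share a number, and whether they are the same culture is not stated. LEF1 and CDH11 were named after their values were seen.

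**Figure D4:**
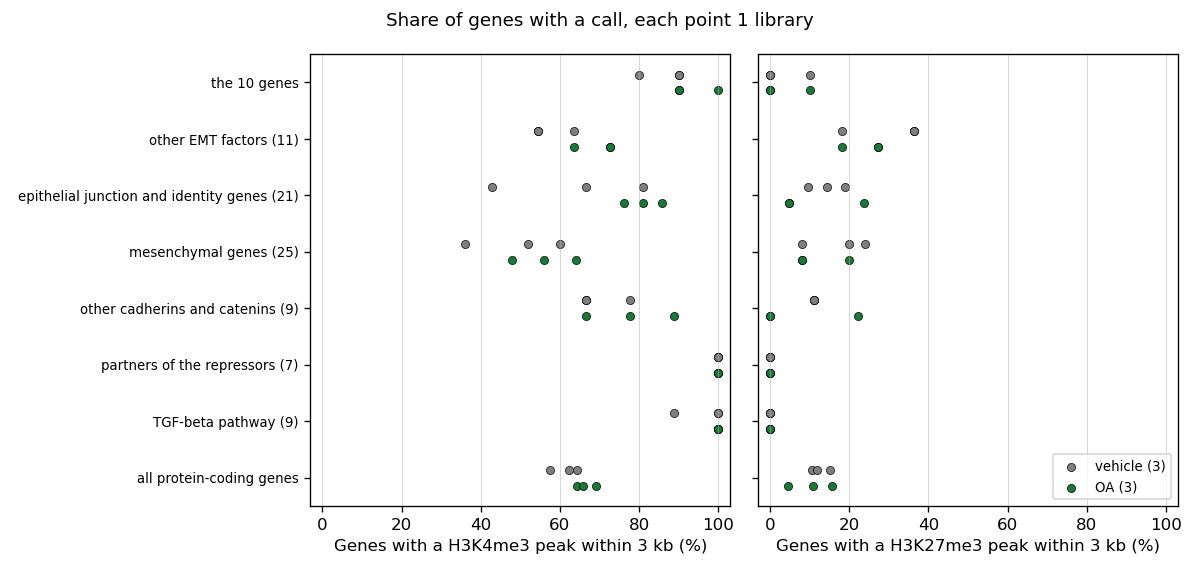
Points give the share of genes (%) with an H3K4me3 peak (left) or an H3K27me3 peak (right) within 3 kb of a start site in each of 3 vehicle (grey) and 3 OA (green) libraries, for the 10 genes, for 6 related lists with their sizes in brackets, and for all 20007 protein-coding genes. The 10 genes sit at 80% to 100% for H3K4me3 and at 0% or 10% for H3K27me3.

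The miR-200 microRNAs target ZEB1 and ZEB2, and their mature sequences are shown because the genomic clusters that encode them differed in H3K4me3. Seeds (bases 2 to 8) are in capitals, from RefSeq.
hsa-miR-200c-3p: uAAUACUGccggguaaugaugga
hsa-miR-200b-3p: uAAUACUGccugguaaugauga
hsa-miR-141-3p: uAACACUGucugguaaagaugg
hsa-miR-200a-3p: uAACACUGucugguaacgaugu
miR-200c and miR-200b share the seed AAUACUG, and miR-141 and miR-200a share AACACUG. MIR200C and MIR141, neighbours on chromosome 12, had 1423, 1470 and 705 bp of H3K4me3 in vehicle and 1475, 2060 and 2268 bp in OA, the same peaks for both. MIR200B, MIR200A and MIR429 on chromosome 1 had no peak of either mark within 3 kb in any of the 6 libraries. Among the sequences shown, each seed is thus encoded once in the marked and once in the unmarked cluster. A mature sequence of miR-429 was not found in the RefSeq set used here, so its seed is not counted. The annotated start of a microRNA gene is that of its hairpin, so a promoter farther away would not be counted.

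By the mean absolute difference in log2 covered length (with 100 bp added) over the 12 vehicle and OA libraries of both marks, the closest protein-coding genes included AVPI1 and GLUL for SNAI2, SOS1 for ZEB1, YAE1 and HYLS1 for ZEB2, LOX and CLPX for TWIST1, and FBXL20 and HS2ST1 for TWIST2. They were SEC63 and ZNF408 for TCF3, CHST15 and BEND7 for CDH1, PGRMC2 and TBC1D17 for CDH2, and SPRED1 and DDX5 for VIM. The differences were 0.02 (LOX to TWIST1) to 0.09 (TBC1D17 to CDH2), against medians over all genes of 0.46 to 0.77.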

How the data were processed

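Peaks were called by the authors library by library. Methods and processing notes name MACS2 2.2.7.1 for H3K4me3 and SICER2 for H3K27me3, whose lists nevertheless have the broadPeak layout of MACS2. The build is hg38 per the labels. The aligner, the treatment of duplicates and the caller's control are not given in the sources used here. The deposited fold (a ratio of peak to local background) and the deposited −log10 p-value and −log10 q-value are not scaled between libraries. Pileups were solved from fold and p-value for 100% of narrow peaks, which was added after seeing the data.

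Peaks on autosomes, X and Y were merged (1 bp overlap) and kept if in at least 2 libraries. Start sites came from GENCODE release 44. Groups were compared with limma 3.58.1 (R 4.3.3, Benjamini-Hochberg adjustment over all regions) and two-sided exact permutation tests, with scripts tested on simulated data (Python 3.11.15). The 10 genes and all lists were chosen with earlier results of these data known. List genes were named if OA-only or vehicle-only, then by longest mean covered length, up to 4 a list, and others only where said to be named after their values were seen. The cell type markers and the microRNA genes did not follow this rule and were also named after their values were seen. Alternatives changed q-value, peak number, window, libraries, centring and replicate block. A few list and nearest genes are not reported here.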

Additional observations from a re-analysis of the deposited data

How the results depend on the processing

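For H3K27me3 no region of the 10 genes was kept, or 2 with regions of any single library, so those alternatives say nothing about stability. For H3K4me3 the value that moved by over 1.5 times was the number of genes of the 10 whose H3K4me3 covered lengths did not overlap, 1 with all libraries and 4 without OA replicate 1, when SNAI2, TWIST2 and CDH2 joined CDH1. Leaving out other replicates gave 1, so the range was 1 to 4, and 31.4% of genes then showed OA higher without overlap, against 8.78% with all libraries. Adding the untreated libraries to vehicle moved the OA minus vehicle difference from -178 to 256 bp for ZEB1, from -176 to 295 bp for VIM, from -91.3 to 160 bp for TCF3 and from 153 to 763 bp for CDH2. Without OA replicate 1 it was 17.7 bp for ZEB1 and 73.2 bp for VIM, without vehicle replicate 1 it was 204.5 bp for TCF3, and without vehicle replicate 3 it fell from 457 to 58.7 bp for SNAI2. The small differences of ZEB2, TWIST1 and TWIST2 also changed sign when single libraries were left out, and none of these differences had passed a test. Deviations of same-numbered replicates 1, 2 and 3 had correlations of 0.0449, 0.157 and -0.232 for H3K4me3 covered length, 0.243, 0.413 and -0.284 for pileup and 0.191, 0.216 and -0.205 for rank. Differently numbered pairs ranged from -0.274 (vehicle replicate 2 with OA replicate 1) to 0.234 (vehicle replicate 2 with OA replicate 3) in covered length. They ranged from -0.5 to 0.215 in pileup and from -0.34 to 0.149 in rank. Same-numbered replicates 1 and 2 were above all of these in pileup and rank but not in covered length. As replicate 3 was negative in each measure, the numbers were not taken to pair the samples. With the replicate block 0 of 9 regions passed in any measure, as without it. Over all regions, pileup calls numbered 13 higher and 0 lower in OA, 0 with the replicate block and 0 without centring, but 403 higher and 151 lower without vehicle replicate 1 and 290 higher and 35 lower without vehicle replicate 3. No region of the 10 genes passed in either. Peak lists carry no read totals, so a missing peak is not an absent mark, and 3 libraries a group cannot give a permutation p below 0.1. At a q-value of at most 1e-05 only 30 H3K27me3 regions were left in all 6 libraries.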
